A study of Mus musculus with 2 samples.

Results

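The genes described here carry glucose into the cell, split it to pyruvate, turn pyruvate into lactate or pass it into the mitochondrion. They are a list of 36 mouse genes, matched by symbol to the gene rows of the deposited table, and all 36 were found among its 55401 rows. The rule names them by function and uses no measured value. The levels come from 2 RNA-seq libraries of myeloid-derived suppressor cells (MDSCs), immature myeloid cells that accumulate in tumor-bearing hosts and dampen T cell responses. One library, the floxed control, was made from C57BL/6 mice of genotype Mettl3fl/fl, and the other from C57BL/6 mice of genotype LysM-cre, Mettl3fl/fl, all 8 weeks old. Both groups therefore carry the floxed Mettl3 alleles, Mettl3 being the catalytic subunit of the m6A RNA methyltransferase, and differ in Cre. LysM-cre is driven from the lysozyme M locus, which is active in monocytes, macrophages and granulocytes and not in all bone marrow-derived cells. Per the labels, the mice bore MC38 tumors, a mouse colon carcinoma line, the MDSCs were isolated with magnetic beads, and they were then kept with MC38 cells for 24 h. A treatment label of the LysM-cre sample reads MC39 where the other reads MC38. How many mice gave cells to each library is not stated in the labels.

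With 1 library per genotype no spread between replicates could be measured, so no test was made and every difference below is a difference between these 2 libraries. Total counts were 59506878 in the control and 59393864 in the LysM-cre-labelled library. Mettl3 itself was at 4.16 FPKM (fragments scaled for gene length and depth) in the control and 3.92 FPKM in the LysM-cre-labelled library, on 1413 and 1333 counts. The Mettl3 ratio in CPM, which is the count scaled by the total of its library, was 0.945, with an exact (Clopper-Pearson) 95% interval of 0.876 to 1.02, and a count over the whole gene does not show whether the floxed exons were lost. All such intervals in the text cover counting error only, because 1 library per genotype shows no spread between replicates. Read pairs and PCR duplicates do not count separate molecules, so the intervals may be too narrow even for counting error. Of the 10 MDSC and neutrophil markers all were measured, 3 were higher and 7 lower in the LysM-cre-labelled library, and their summed level was 10500 FPKM in the control and 9340 FPKM in the other. Markers of other cell types also differed. The summed level went from 2040 to 2280 FPKM for 7 macrophage genes (7 of 7 higher), from 94.2 to 152 FPKM for 5 eosinophil genes (5 of 5 higher), from 3290 to 2090 FPKM for 7 B and plasma cell genes (6 of 7 lower) and from 990 to 1390 FPKM for the red cell and platelet genes (7 of 8 kept higher). It was 1350 and 1260 FPKM for monocyte genes, 69.2 and 75.6 FPKM for dendritic cell genes, 190 and 192 FPKM for T and NK cell genes and 18.1 and 19.3 FPKM for fibroblast and endothelial genes. The epithelial list, which would mark carcinoma cells, summed to 3.85 and 4.07 FPKM, with Krt19 and Krt20 at 0 in both. In bulk samples fewer cells of a type and less RNA per cell cannot be told apart, and the part of these cell types in the values below was not tested.

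Glycolysis turns 1 glucose into pyruvate in the cytosol and yields ATP and NADH. Pyruvate is then either reduced to lactate by lactate dehydrogenase, which returns the NADH to NAD, or carried into the mitochondrion and oxidised by the pyruvate dehydrogenase complex. Neutrophils and activated myeloid cells rely heavily on glycolysis, and many of its genes are targets of the hypoxia factor HIF-1. The main points of control are glucose uptake, hexokinase, phosphofructokinase 1 and pyruvate kinase.

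Taken as a group, the pathway genes differed little between the libraries. The 36 genes held 0.448% of all counts in the control and 0.452% in the LysM-cre-labelled library. With rows of near-identical sequence added, which are described below with Gapdh, the shares were 0.525% and 0.523%. A total of 34 members had a mean of 1 FPKM or more, and the brain-type enolase Eno2 and the brain-type aldolase Aldoc did not. Differences are given as the log2 ratio of FPKM + 1, the LysM-cre-labelled library over the control, and as the CPM ratio. Over the 34 members the median log2 ratio was 0.00, as it was over the 12526 genes kept by the same filter, and the values ran from -0.57 for Pfkp to 0.85 for Gapdh. The median size of the log2 ratio without its sign was 0.13 for the members and 0.11 for all genes kept. Of the 34 members, 1 (Gapdh, 2.94%) differed by 1.5-fold or more, against 6.47% of all genes kept and 3.13% of the protein-coding genes kept. That member was higher, where 3.19% of all genes were, and 0 members were lower by this fold, where 3.28% of all genes were. No member (0) reached 2-fold in either direction, where 2.49% of all genes did, 1.31% higher and 1.18% lower. At a difference in FPKM + 1 of 25% or more of its smaller value the count was 5, against 16.1% of all genes kept. These were Gpi1, Gapdh and Mpc1 on the higher side (3, against 8.41% of all genes) and Pfkp and Pfkfb3 on the lower side (2, against 7.7%). By sign alone 18 members were higher and 16 lower, where the shares over all genes kept were 50.3% and 49.7%. The counting interval of the CPM ratio lay off 1 for 22 members, or 64.7%, against 59.8% of all genes kept. It lay above 1 for 10 members and below 1 for 12, where the shares over all genes kept were 30.1% and 29.7%.

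**Figure D1:**
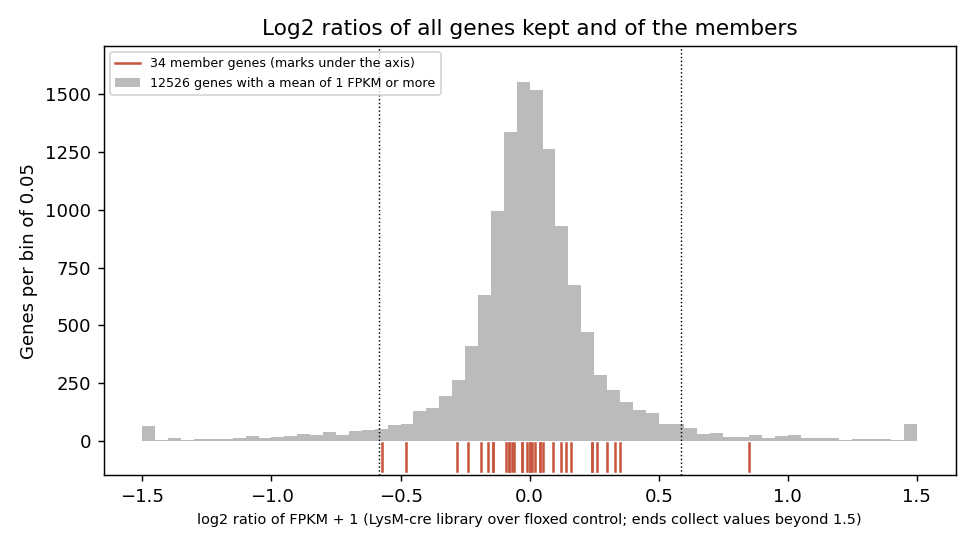
Histogram of the log2 ratio of FPKM + 1 (library labelled LysM-cre over floxed control) for the 12526 genes that averaged at least 1 FPKM, in bins of 0.05, with the 34 member genes as red marks under the axis and dotted lines at 1.5-fold. The members lie on both sides of 0, and 1 of them, Gapdh, lies beyond a dotted line.

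The levels of the members, each taken from its own row, covered a wide range. Pyruvate kinase Pkm (145 and 131 FPKM) and aldolase Aldoa (126 and 137 FPKM) were the highest of the members, higher than 97.2% and 97.0% of all genes kept. They were followed by Pgk1, Gpi1, Ldha and Eno1, each above 50 FPKM in both libraries, while Pfkm was the lowest of the 34 at 1.82 and 2.15 FPKM. For members with 100 counts or more, the counts, library totals and FPKM imply a length 1.12 to 1.13 times that of all annotated exons together. A larger depth behind the FPKM would give the same factor, so the exact length used is not known. Scaling by all exons together places genes with long rare exons too low. Per kilobase of the main coding transcript, with counts scaled to the library total, Pkm (334 and 302) and Aldoa (272 and 296) were again the highest 2. The next 4 then came in another order: Gpi1 (162 and 205), Eno1 (155 and 183), Ldha (138 and 139) and Pgk1 (113 and 108). Pfkm stayed the lowest of the 34 on this scale. For the isoforms of a step both scales are given where they order them differently.

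**Figure D2:**
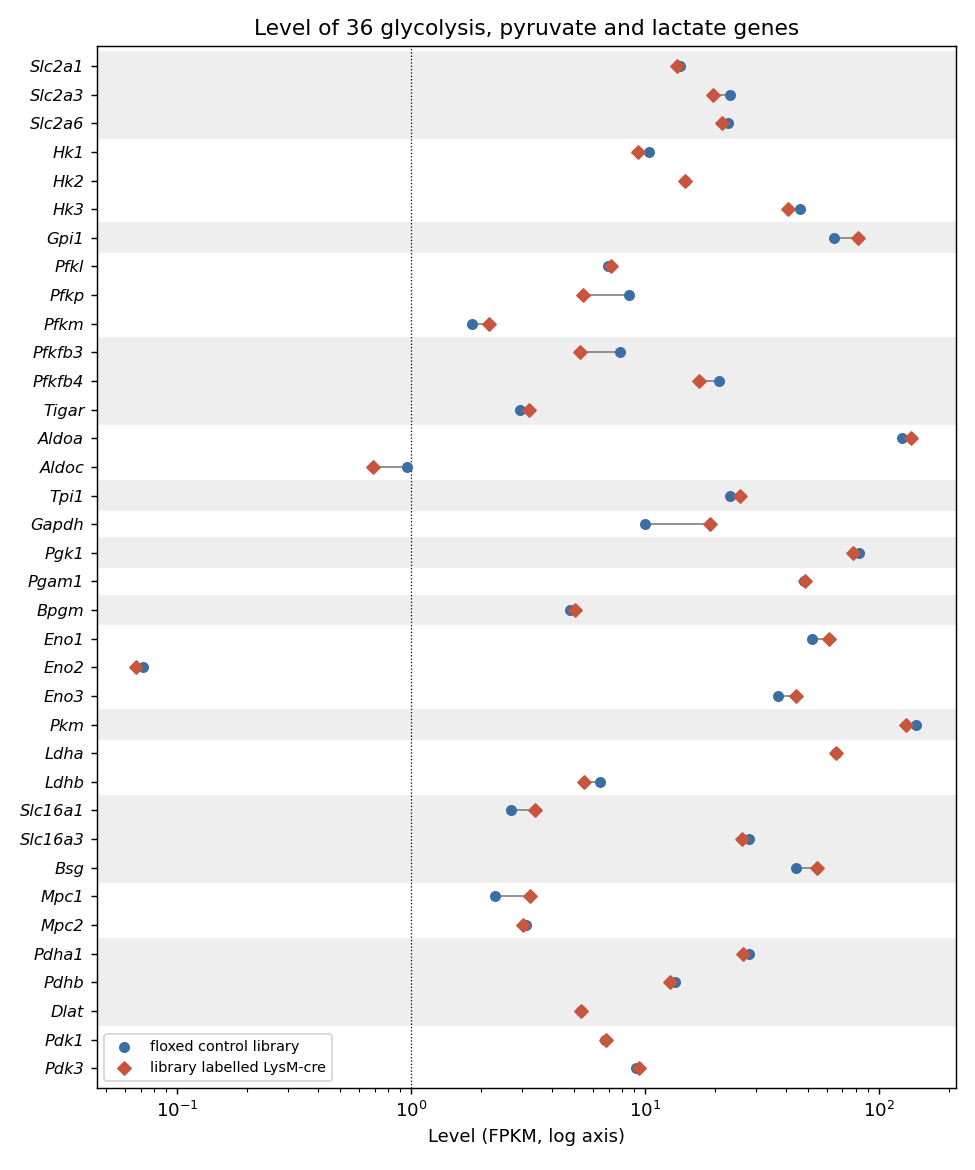
FPKM of each member gene in the floxed control and in the LysM-cre-labelled library on a log axis, grouped by step of the pathway from glucose uptake to pyruvate entry. The paired points lie close together for nearly all genes, with a visible gap for Gapdh at 10 and 19 FPKM.

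Glucose enters through facilitative transporters of the GLUT family. Slc2a1, which encodes GLUT1, the transporter of most dividing cells, was at 14.2 FPKM in the control and 13.8 FPKM in the LysM-cre-labelled library, and its CPM ratio of 0.974 had an interval that held 1 (0.928 to 1.02). Slc2a3 encodes the high-affinity transporter GLUT3. It was at 23.2 and 19.5 FPKM, on 11221 and 9434 counts, a CPM ratio of 0.842 (0.820 to 0.866) and a log2 ratio of -0.24. Slc2a6, a lysosomal member of the family found in myeloid cells, was at 22.6 and 21.4 FPKM. The 3 transporters together were at 60.0 and 54.8 FPKM, with Slc2a3 the one that differed most between the libraries. In the LysM-cre-labelled library Slc2a6 held 39.1% of the summed FPKM and Slc2a3 held 35.7%. Per kilobase of coding transcript that order was reversed, with Slc2a3 at 43.2% and Slc2a6 at 38.9%. In the control Slc2a3 stood above Slc2a6 on both scales.

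Hexokinase traps glucose as glucose 6-phosphate. The 3 hexokinases measured were led by Hk3, the isoform typical of myeloid cells, at 45.9 and 41.1 FPKM. It held 64.6% of the hexokinase level in the control and 63.0% in the LysM-cre-labelled library, or 57.4% and 56.1% per kilobase of coding transcript. Hk1, the widely expressed isoform bound to mitochondria, was at 10.4 and 9.37 FPKM. Hk2, the inducible isoform, was at 14.8 FPKM in both libraries, on 5886 and 5879 counts. The CPM ratios were 0.895 (0.872 to 0.920) for Hk3, 0.900 (0.867 to 0.934) for Hk1 and 1.00 (0.965 to 1.04) for Hk2. The order Hk3, Hk2, Hk1 by FPKM was the same in both libraries, and per kilobase of coding transcript Hk1 stood above Hk2 in both. Gpi1, the isomerase that makes fructose 6-phosphate, was higher in the LysM-cre-labelled library, at 64.6 and 81.6 FPKM on 27865 and 35118 counts. Its CPM ratio was 1.26 (1.24 to 1.28) and its log2 ratio 0.33.

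Phosphofructokinase 1 commits the sugar to glycolysis, and it was the step with the clearest difference between isoforms. Pfkp, the platelet-type subunit, was at 8.57 FPKM in the control and 5.43 FPKM in the LysM-cre-labelled library, on 7680 and 4855 counts. Its CPM ratio was 0.633 (0.611 to 0.657), its log2 ratio was -0.57, and its fold on the FPKM + 1 scale was 1.49, just under the 1.5 that was counted. On the scale of CPM alone it passed 1.5-fold. Pfkl, the liver-type subunit and usually the main one in myeloid cells, was at 6.97 and 7.19 FPKM, with a CPM ratio of 1.03 (0.980 to 1.08). Pfkm, the muscle-type subunit, was at 1.82 and 2.15 FPKM, with a ratio of 1.19 (1.04 to 1.36). Pfkp therefore made up 49.4% of the summed phosphofructokinase 1 level in the control and 36.8% in the LysM-cre-labelled library. Per kilobase of coding transcript these shares were 65.5% and 53.4%, and the share of Pfkl went from 29.5% to 39.0%. Whether Pfkp or Pfkl was the more abundant in the LysM-cre-labelled library depended on the length used: Pfkl by FPKM, Pfkp by coding transcript. Pfkp overlaps Pitrm1 on the opposite strand by 748 bases, and Pitrm1 was at 7.80 and 8.50 FPKM, the other direction from Pfkp.

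The activity of phosphofructokinase 1 is set by fructose 2,6-bisphosphate, which the PFKFB enzymes make and break. Pfkfb3, whose kinase activity far outweighs its phosphatase, was at 7.82 and 5.31 FPKM on 3959 and 2683 counts, a CPM ratio of 0.679 (0.646 to 0.713) and a log2 ratio of -0.48. Pfkfb4, a more balanced isoform, was at 20.8 and 17 FPKM on 6771 and 5513 counts, with a ratio of 0.816 (0.787 to 0.845). Both kinases were thus lower in the LysM-cre-labelled library, and the ratio of Pfkfb4 to Pfkfb3 in FPKM went from 2.66 to 3.19, or from 2.27 to 2.73 per kilobase of coding transcript. Tigar, a phosphatase that works against them, was at 2.94 and 3.20 FPKM, and its ratio of 1.09 had an interval that held 1 (0.983 to 1.21). Pfkfb2, which is not on the list of 36, went the other way from Pfkfb3, from 1.14 to 1.93 FPKM.

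**Figure D3:**
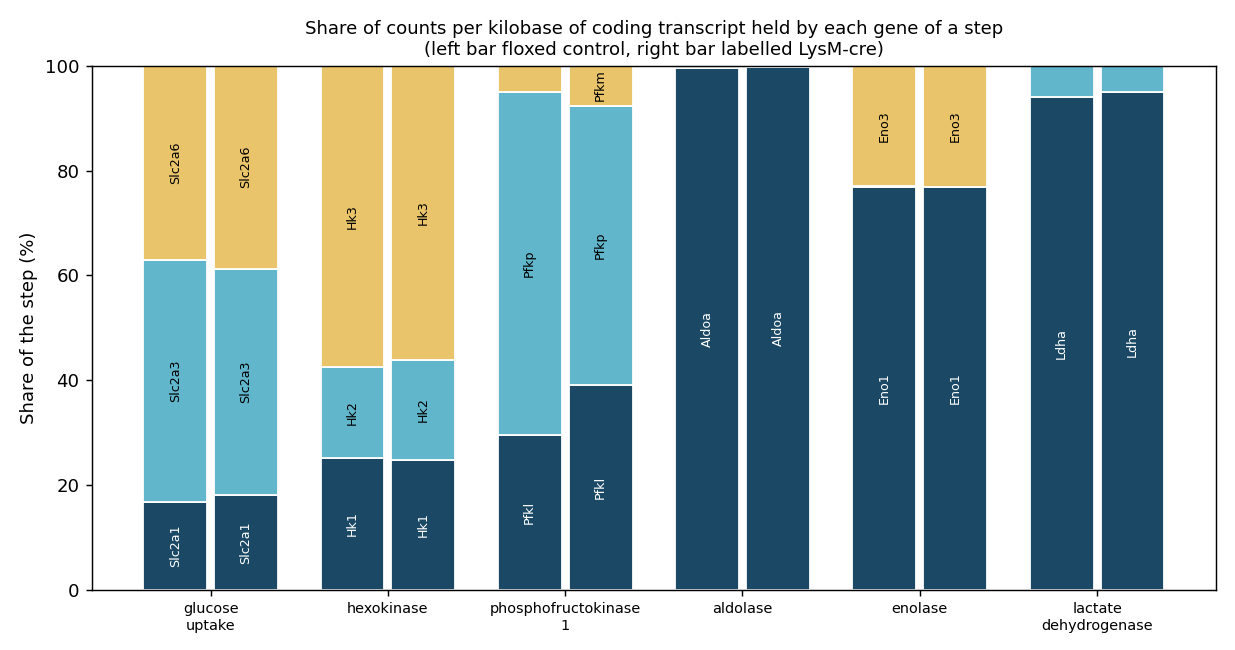
Share of each step held by its genes, in percent of the summed counts per kilobase of principal coding transcript, for 6 steps with several genes, with the floxed control as the left bar and the LysM-cre-labelled library as the right bar of each pair. Phosphofructokinase 1 shows the widest difference of the steps drawn, with Pfkp at 65.5% and 53.4%.

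Aldolase and triose phosphate isomerase were slightly higher in the LysM-cre-labelled library. Aldoa, the main aldolase outside liver and brain, was at 126 and 137 FPKM on 24422 and 26567 counts, with a CPM ratio of 1.09 (1.07 to 1.11). A separate row of the same symbol just upstream of it had 25 counts in the control and 0 in the other library. Aldoc was at 0.960 and 0.690 FPKM on 211 and 152 counts. Aldoa held 99.5% and 99.7% of the aldolase level per kilobase of coding transcript, so Aldoc hardly contributed in either library. Tpi1, which interconverts the triose phosphates, was at 23.2 and 25.5 FPKM, with a ratio of 1.1 (1.06 to 1.15).

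Gapdh, the dehydrogenase that makes the NADH of glycolysis and a common reference gene, was the member with the highest ratio. Its row was at 10 FPKM in the control and 19 FPKM in the LysM-cre-labelled library, on 2777 and 5232 counts, a CPM ratio of 1.89 (1.80 to 1.98). By FPKM Gapdh stood in place 18 of the 34 members, and per kilobase of coding transcript in place 11, at 32.9 and 62. On both scales the Gapdh row alone lay under its neighbours Aldoa and Pgk1 in the pathway in both libraries. The mouse genome holds many processed pseudogenes of Gapdh, copies of the mRNA without introns. By alignment of the transcripts, 88 other rows of the table were near-identical to Gapdh (95% identity or more over 50% or more of the row's transcript), and 76 of them had counts. Together they had 30421 counts (control) and 29593 counts (LysM-cre-labelled), so that the Gapdh row had 8.36% and 15.0% of the sum. Summed over all these rows the counts were 33198 and 34825, a ratio of 1.05 (1.04 to 1.07). Scaled by the length of the Gapdh row, this sum was 120 and 126 FPKM. By FPKM that is above phosphoglycerate kinase with its own near-identical rows (83.9 and 79.8 FPKM) and under aldolase (127 and 138 FPKM). The length implied by the FPKM was 3.27 times the main coding transcript for Gapdh, 2.16 times for Aldoa and 1.38 times for Pgk1. The order of the sum and aldolase thus depends on the length used, and the sum is not given per kilobase of coding transcript. How many of the summed counts came from Gapdh mRNA was not tested. Gm12033, a pseudogene on chromosome 11, had 4027 counts in the control and 955 in the other library, while Gm13394 had 916 and 1822. Gm7336 (6851 and 6958 counts), Gm5559 (5665 and 6572), Gm2606 (4664 and 4741) and Gm12070 (3524 and 3502) each had more counts than Gapdh itself in the control. The Gapdh row therefore stood higher in the LysM-cre-labelled library and Gm12033 lower, while their family together differed by 1.05. The sources used here do not say how reads that match several rows were assigned, and its part in the Gapdh value was not tested.

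The sequences show how little separates these rows. Each of the 850 windows of 150 bases, the length of a read, in the Gapdh coding sequence occurs letter for letter in a transcript of at least 1 other gene. Gm12033 shares 700 of the 850 windows (82.4%). Over the coding sequence Gapdh and Gm12033 differ by 1 base, T504C, and Gapdh and Gm5559 by 1 base, T385A, counted from the first base of the Gapdh coding sequence, with the Gapdh base first. Coding bases 429 to 578 of Gapdh (build GRCm38, minus strand of chr6:125161715-125165773), Gm12033 (minus strand of chr11:20335012-20336013) and Gm5559 (plus strand of chr5:95861714-95862715) are shown to place that difference, with position 504 as the capital.
Gapdh: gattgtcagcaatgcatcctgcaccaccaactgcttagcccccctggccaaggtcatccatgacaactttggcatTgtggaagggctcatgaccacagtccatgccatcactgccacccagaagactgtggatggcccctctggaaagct
Gm12033: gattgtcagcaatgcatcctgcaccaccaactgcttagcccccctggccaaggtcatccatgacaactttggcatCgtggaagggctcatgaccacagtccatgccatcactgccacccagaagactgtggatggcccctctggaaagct
Gm5559: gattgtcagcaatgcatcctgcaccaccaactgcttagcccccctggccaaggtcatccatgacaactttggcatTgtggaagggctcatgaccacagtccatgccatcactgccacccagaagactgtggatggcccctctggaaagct
Gm5559 is identical to Gapdh over this stretch, and a read that lies within it cannot be assigned to either by its letters.

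**Figure D4:**
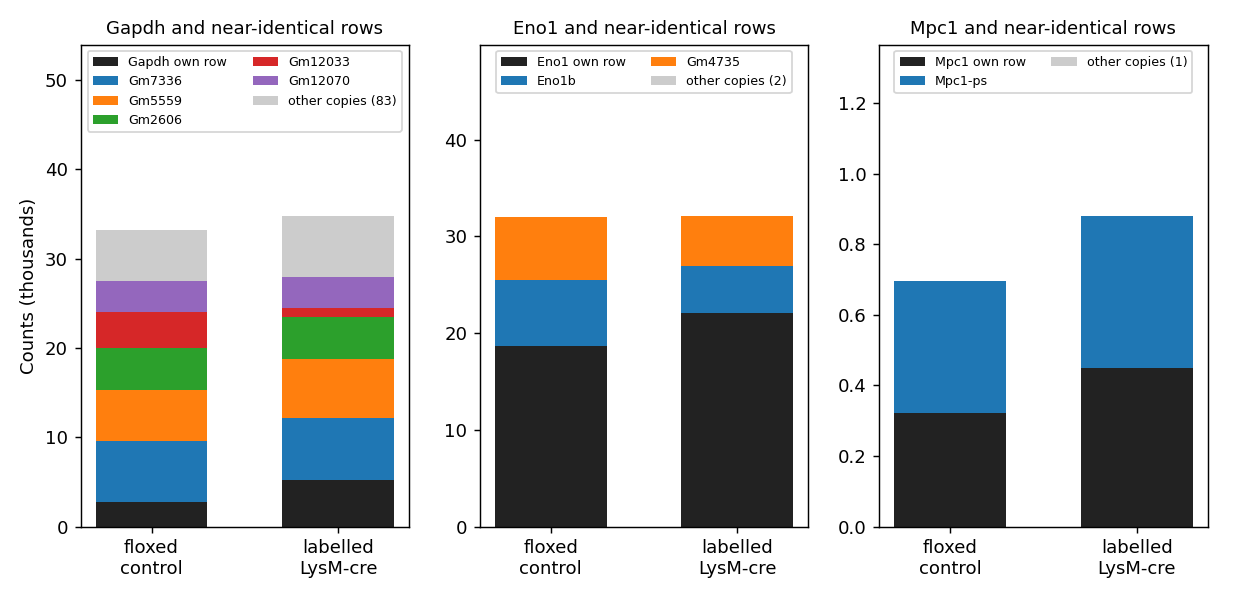
Counts of Gapdh, Eno1 and Mpc1 (black) and of their near-identical rows (colours, stacked), with the floxed control as the left bar and the LysM-cre-labelled library as the right bar of each panel. For Gapdh the own row is a small part of the sum (8.36% and 15.0%), and for Eno1 the larger part (58.3% and 68.6%).

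Pgk1 and Pgam1, the next steps, hardly differed. Pgk1, the kinase that makes the first ATP of the pathway, was at 82.2 and 78.0 FPKM on 12318 and 11673 counts, a CPM ratio of 0.949 (0.926 to 0.974). Pgam1, which moves the phosphate of phosphoglycerate, was at 47.9 and 48.4 FPKM with a ratio of 1.01 (0.976 to 1.05). All windows of 150 bases in their coding sequences also occur in other transcripts, 1102 of 1102 for Pgk1 and 613 of 613 for Pgam1. Their near-identical rows nevertheless held few counts. Pgk1 kept 97.9% and 97.8% of its sum and Pgam1 90.1% and 89.6%, and the summed ratios were 0.951 and 1.02. Bpgm, the red cell enzyme that makes 2,3-bisphosphoglycerate, was at 4.81 and 5.02 FPKM, with a ratio of 1.04 (0.962 to 1.13). The red cell and platelet genes, summed, were at 990 and 1390 FPKM.

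Enolase makes phosphoenolpyruvate. Eno1, the ubiquitous form, was at 52.0 FPKM in the control and 61.5 FPKM in the LysM-cre-labelled library on 18700 and 22046 counts, a ratio of 1.18 (1.16 to 1.2). Eno1 also has near-identical rows, and these went the other way. Eno1b had 6805 and 4945 counts and Gm4735 had 6485 and 5081. Summed over Eno1 and its 4 near-identical rows the counts were 32052 and 32150, a ratio of 1.00 (0.990 to 1.02), so the higher level of Eno1 did not remain in the sum. Of the 1153 windows of 150 bases in the Eno1 coding sequence, 684 (59.3%) occur in other transcripts. Gm4735 differs from Eno1 by 5 bases over the coding sequence: T726C, T816G, A1056G, T1224C and C1233T, counted from the first base of the Eno1 coding sequence with the Eno1 base first. Coding bases 696 to 845 of Eno1 (GRCm38, plus strand of chr4:150236721-150248879) and of Gm4735 (plus strand of chr2:80837141-80838442) are shown with positions 726 and 816 as capitals.
Eno1: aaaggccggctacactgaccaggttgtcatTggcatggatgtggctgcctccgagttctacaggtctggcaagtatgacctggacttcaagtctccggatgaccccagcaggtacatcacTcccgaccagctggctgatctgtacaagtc
Gm4735: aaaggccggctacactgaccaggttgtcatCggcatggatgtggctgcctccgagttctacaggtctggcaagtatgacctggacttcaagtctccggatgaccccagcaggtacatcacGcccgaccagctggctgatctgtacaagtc
These are the only differences between both rows within the stretch shown.

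Eno3, the muscle-type enolase, was at 37.2 and 44.1 FPKM on 4326 and 5112 counts, with a ratio of 1.18 (1.14 to 1.23). No window of 150 bases in its coding sequence occurs in another gene's transcript, and its untranslated exons were not searched. The ratio of Eno3 to the Eno1 row in FPKM was 0.715 and 0.717, and per kilobase of coding transcript 0.3 and 0.301. With near-identical rows added to Eno1, Eno3 held 29.4% of the enolase FPKM in the control and 33.0% in the LysM-cre-labelled library. Eno2, the neuronal form, had 24 and 23 counts and was at 0.0714 and 0.0669 FPKM, far under the filter of 1 FPKM.

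Pyruvate kinase and lactate dehydrogenase, the last steps, were lower or level. Pkm, which makes pyruvate and ATP, was at 145 and 131 FPKM on 48402 and 43687 counts, a ratio of 0.904 (0.893 to 0.916). It shares 3887 bases with Gm49759 on the same strand, which had 3230 and 3039 counts. Ldha, the subunit that favours lactate, was at 65.8 and 65.9 FPKM, and its 14543 and 14544 counts gave a ratio of 1.00 (0.979 to 1.03). Ldhb, the heart-type subunit, was at 6.43 and 5.49 FPKM on 675 and 576 counts, with a ratio of 0.855 (0.764 to 0.957). The ratio of Ldha to Ldhb in FPKM was 10.2 in the control and 12 in the LysM-cre-labelled library, and per kilobase of coding transcript 15.9 and 18.6, so Ldha made up most of the lactate dehydrogenase in both.

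Lactate leaves the cell through monocarboxylate transporters, which need the chaperone basigin to reach the membrane. Slc16a3, the exporter MCT4 of glycolytic cells, was at 27.9 and 26.1 FPKM on 9907 and 9252 counts, a ratio of 0.936 (0.909 to 0.963). Slc16a1, the transporter MCT1 with higher lactate affinity, was at 2.67 and 3.39 FPKM on 791 and 1002 counts, with a ratio of 1.27 (1.16 to 1.39). The ratio of Slc16a3 to Slc16a1 in FPKM was 10.4 and 7.69, and per kilobase of coding transcript 12.8 and 9.43. Bsg, which encodes basigin, was at 44.2 and 54.7 FPKM on 5364 and 6612 counts, a ratio of 1.24 (1.19 to 1.28). Of these 3 genes Slc16a1 and Bsg were thus higher in the LysM-cre-labelled library and Slc16a3 slightly lower.

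Pyruvate enters the mitochondrion through a carrier of the subunits Mpc1 and Mpc2. Mpc1 was at 2.30 and 3.22 FPKM on 322 and 448 counts, a ratio of 1.39 (1.21 to 1.61). A near-identical row, Mpc1-ps, had 373 and 433 counts, and 137 of 178 windows (77.0%) of the Mpc1 coding sequence occur in other transcripts. The 2 rows together gave a ratio of 1.27 (1.15 to 1.4). Mpc2 was at 3.12 and 3.02 FPKM on 1532 and 1481 counts, a ratio of 0.969 (0.901 to 1.04). By FPKM, Mpc2 made up 57.5% and 48.4% of the carrier, and per kilobase of coding transcript 81.6% and 75.5%. With near-identical rows added to Mpc1, the Mpc2 share of the carrier FPKM was 38.5% and 32.3%. The length implied by the Mpc2 FPKM was 8.05 times that of its main coding transcript, the highest such factor among the members. Its annotated exons together span 7344 bases and that transcript 1025 bases.

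The pyruvate dehydrogenase complex and its kinases differed little. Pdha1 and Pdhb encode the subunits of its first enzyme. Pdha1 was at 27.9 and 26.4 FPKM with a ratio of 0.946 (0.915 to 0.979), and Pdhb at 13.5 and 12.8 FPKM with a ratio of 0.954 (0.909 to 1.00). Dlat, the acetyltransferase core, was at 5.36 and 5.32 FPKM, with a ratio of 0.992 (0.928 to 1.06). The kinases that switch the complex off were also level, with Pdk1 at 6.79 and 6.84 FPKM and Pdk3 at 9.16 and 9.48 FPKM. Their ratios were 1.01 (0.961 to 1.06) and 1.03 (0.964 to 1.11).

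**Figure D5:**
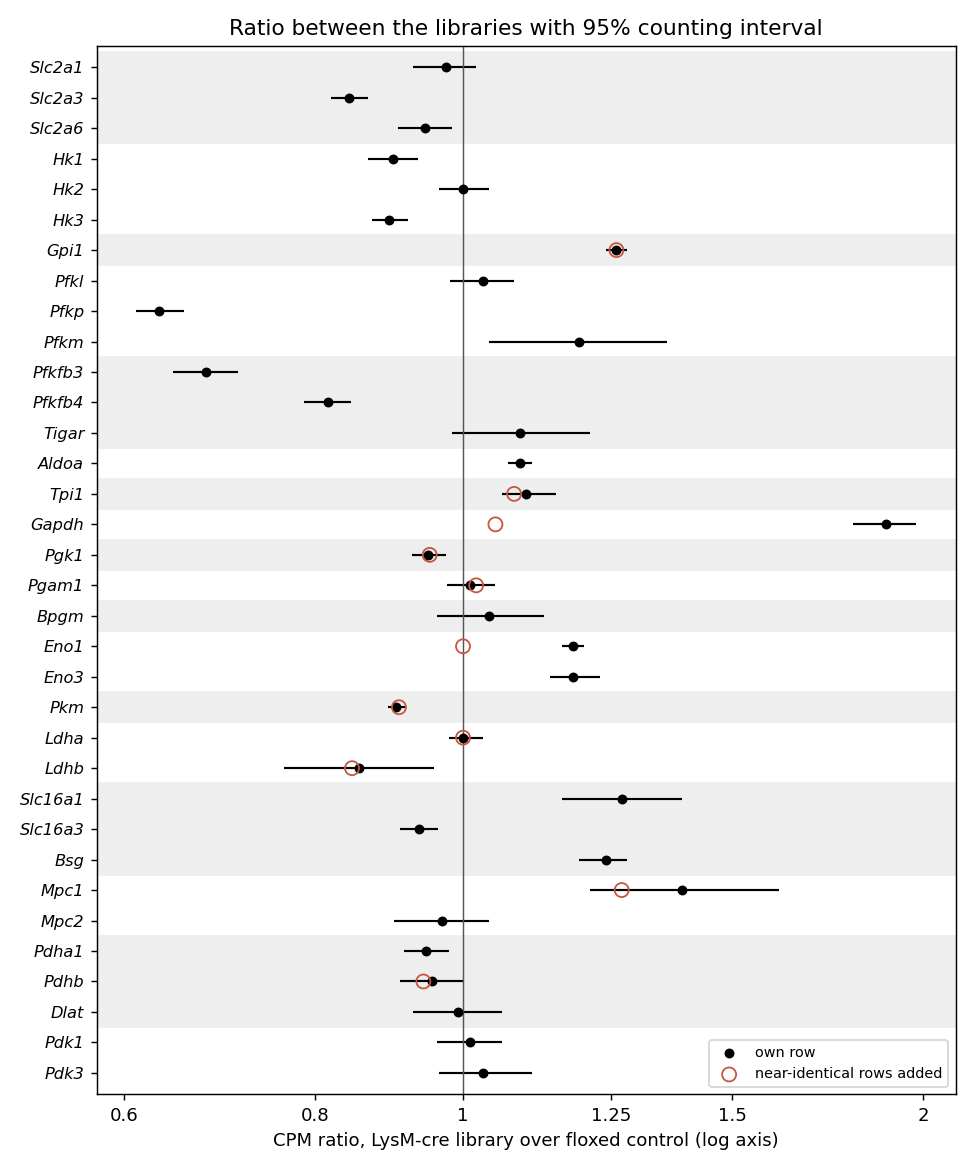
CPM ratio of each of the 34 members kept (library labelled LysM-cre over floxed control, log axis) with its exact 95% interval for counting error only, grouped by step, and open circles for the ratio with near-identical rows added. Gapdh is the highest at 1.89, and Pfkp (0.633) and Pfkfb3 (0.679) are the lowest.

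Near-identical rows were found for 11 members, and shared windows of 150 bases for 7: Gapdh, Pgk1, Pgam1, Eno1, Mpc1, Pkm and Pdhb. The coding sequences of the other 29 members shared no window with another gene, and untranslated exons were not searched. Pfkp, Pfkfb3, Pfkfb4 and Slc2a3 among the lower members, and Gpi1, Bsg, Slc16a1 and Eno3 among the higher, belong to those 29. When near-identical rows were added to their members, the counting interval lay above 1 for 9 of the 34 members and below 1 for 13. By their own rows, 30.1% of all genes kept lay above 1 and 29.7% below. Eno1 moved to an interval that held 1, Pdhb moved below 1, and 0 members passed 1.5-fold, against 6.47% of all genes kept.

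The upstream sequences of the members were searched for ACGTG on either strand, the core of the site that HIF-1 binds and, as CACGTG, of the E-box that MYC binds. RefSeq starts on GRCm38.p6 were matched for 34 of the 36 members, and Bsg and Slc2a3 had none in the table used. In the 250 bases before a start, 14 of the 34 (41.2%) held the motif, against 18.5% of 27025 genes. These were Aldoa, Hk2, Hk3, Ldha, Pdhb, Pdk3, Pfkfb3, Pfkm, Pgam1, Pgk1, Pkm, Slc16a1, Slc16a3 and Slc2a1, which include genes at higher, level and lower values in the LysM-cre-labelled library. For GCGTG, the other form of the HIF core, the share was 22 of 34 (64.7%), against 30.9% of genes. A gene can have several starts. Counted by start, 35.4% of 48 member promoters held ACGTG, against 16.6% of 32851, and 54.2% held GCGTG, against 28.2%. Both motifs contain the letters CG, and the comparison took every gene of the source, without matching for level or base content. What lies behind the difference in shares was not tested. A match is a string of letters and not a measured site. Ldha and Pgk1, both long known as HIF-1 targets, are shown as examples of members with the motif whose levels hardly differed here. The Ldha window is chr7:46845554-46845803 and the Pgk1 window chrX:106186850-106187099, both on the plus strand of GRCm38.p6 and both without annotated exons, with ACGTG and its reverse CACGT in capitals.
Ldha promoter: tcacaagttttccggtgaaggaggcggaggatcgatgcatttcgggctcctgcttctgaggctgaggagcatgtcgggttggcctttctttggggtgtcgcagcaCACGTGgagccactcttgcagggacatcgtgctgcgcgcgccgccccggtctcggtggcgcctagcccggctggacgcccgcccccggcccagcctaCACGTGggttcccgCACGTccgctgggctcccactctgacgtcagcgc
Pgk1 promoter: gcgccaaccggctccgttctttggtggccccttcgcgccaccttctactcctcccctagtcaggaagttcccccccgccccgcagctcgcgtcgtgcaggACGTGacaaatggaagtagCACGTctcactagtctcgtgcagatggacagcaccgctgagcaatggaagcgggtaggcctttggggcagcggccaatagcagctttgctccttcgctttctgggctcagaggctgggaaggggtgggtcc
The Ldha window holds CACGTG at 2 places, each read on both strands, and a further CACGT. Hif1a, the regulated subunit of HIF-1, was at 16.9 and 16.7 FPKM, and Myc at 13.3 and 13.7 FPKM.

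Genes outside the list that belong to the same or neighbouring pathways showed a similar mix. Of 15 other isoforms of these steps that were kept, 8 stood higher and 7 lower, and the median log2 ratio was 0.00. Besides Eno1b and Pfkfb2, the largest differences were in Pgam5, a mitochondrial phosphatase of the mutase family, at 8.83 and 6.42 FPKM, and the urate transporter Slc2a9 at 2.12 and 2.68 FPKM. Among 22 regulators of glycolysis kept, 10 stood higher and 12 lower, around a median of -0.02. Of these, 1 was higher by 1.5-fold or more (against 3.19% of all genes kept), Vhl, the ubiquitin ligase subunit that marks HIF for degradation, at 4.26 and 7.22 FPKM with a CPM ratio of 1.70. A further 2 were lower by this fold (against 3.28% of all genes kept): Max, the partner of MYC, at 36.6 and 23.4 FPKM, and the ubiquitin ligase Trim21 at 9.14 and 5.34 FPKM. The histone deacetylase Hdac4 was at 4.03 and 3.13 FPKM.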

How the data were processed

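Poly(A) RNA of 2 libraries was sequenced as paired reads of 150 bases with dUTP strand marking, per the labels' protocols. The submitters' processing notes name build mm10 and the tools HISAT2 2.0.4, cutadapt 1.9, DESeq2, edgeR and StringTie 1.3.4d. The sources used here do not state their settings, or how strand and reads that match several places were handled. The deposited table holds whole-number counts per gene row, not normalized by the authors, and FPKM values scaled by the authors for depth and length, per the file headers. An FPKM of 0.0001 was read as 0. A further 8 value columns that no label describes were not used.

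Rows that averaged at least 1 FPKM over both libraries were kept (12526), and log2((FPKM + 1) ratios) were taken with a pseudocount of 1. This scale understates differences of low genes. With 1 library per genotype there was no test, and genes were counted at 1.5-fold. CPM ratios have exact 95% Clopper-Pearson intervals. The counting was tested on simulated data. Near-identical rows were found with BLAST+ 2.17.0 among GENCODE M21 transcripts (95% identity or more, 200 bases or more), a step chosen after seeing the data. Promoters came from RefSeq. Scaling alternatives used edgeR 4.0.16 and DESeq2 1.42.0 in R 4.3.3; the rest used Python 3.11.15 and scipy 1.17.1. The rule for the members uses no measured value, but members and lists were chosen with earlier results of these data known. All 36 members were to be given, and from each other list up to 4 genes with the largest log2 ratio in either direction, rows sharing sequence with a member, Mettl3, Hif1a and Myc.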

Additional observations from a re-analysis of the deposited data

How the results depend on the processing

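The median log2 ratio of the members stayed between -0.02 and 0.02 under every alternative run. The count of members at 1.5-fold, 1 in the report, became 2 (Gapdh and Pfkp) with a pseudocount of 0.1, with TPM, with CPM with and without a prior, with TMM or median-ratio scaling and without immunoglobulin and haemoglobin counts. It became 0 with near-identical rows summed, without Gapdh and at a fold of 2, and 5 at a difference of 25% in FPKM + 1. Of these, the summed rows, the count without Gapdh and the CPM without a prior were added after seeing the data. Where 2 members were counted, the share of all genes at 1.5-fold also differed from the 6.47% of the main setting. It was 9.59% with a pseudocount of 0.1, 8.46% with TPM and 10.1% with CPM without a prior. With a prior it was 6.31% for CPM and for median-ratio scaling and 6.32% for TMM. Without immunoglobulin and haemoglobin counts it was 5.64%. The count over all genes, 811 in the main setting, was 340 with a pseudocount of 5, 1275 with no filter, 391 with a minimum of 5 FPKM, 1267 with CPM without a prior, 312 at a fold of 2, 2018 at a difference of 25% and 321 for protein-coding genes. The Pfkp share of phosphofructokinase 1 in the LysM-cre-labelled library was 36.8% by FPKM and 53.4% per kilobase of principal coding transcript, which was added after seeing the data. The log2 ratio ran from 0.07 to 0.92 for Gapdh, from 0.01 to 0.24 for Eno1, from -0.66 to -0.38 for Pfkp and from -0.56 to -0.31 for Pfkfb3. No paired analysis was possible because each genotype has 1 library, and for the same reason no replicate could be left out. Depth limits Ldhb, Mpc1, Pfkm, Aldoc and Eno2, which had under 700 counts in each library.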

Other observations

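The pathways that branch from glycolysis or take over its product were mostly level. In the citrate cycle, 17 of 25 genes kept stood higher in the LysM-cre-labelled library and 8 lower, against 50.3% and 49.7% of all genes kept. The counting interval lay above 1 for 9 of them and below 1 for 5, against 30.1% and 29.7% of all genes kept. The median log2 ratio was 0.04 beside 0.00 for all genes kept. The largest difference in that list was in Mdh1, the cytosolic malate dehydrogenase of the malate-aspartate shuttle, at 31.6 FPKM in the control and 43.7 FPKM in the LysM-cre-labelled library, a CPM ratio of 1.38 (1.34 to 1.43). Suclg2, the GTP-specific subunit of succinyl-CoA ligase, was at 5.72 and 4.85 FPKM, and the mitochondrial isocitrate dehydrogenase Idh2 at 15.5 and 17.6 FPKM. Idh1, its cytosolic counterpart, was at 35.9 and 40 FPKM. Of the 25 genes, 0 differed by 1.5-fold or more, against 6.47% of all genes kept.

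In the pentose phosphate pathway, which makes NADPH for the oxidative burst, 6 of 11 genes kept stood higher and 5 lower, around a median of 0.01. H6pd, the dehydrogenase of the endoplasmic reticulum, was at 11.1 and 12.8 FPKM, Rpe, the ribulose phosphate epimerase, at 9.87 and 11 FPKM, Prps1, a phosphoribosyl pyrophosphate synthetase, at 8.22 and 7.41 FPKM, and Pgd, the phosphogluconate dehydrogenase, at 52.0 and 47.9 FPKM. Among 13 genes of glycogen metabolism and gluconeogenesis that were kept, 6 stood higher and 7 lower, around a median of -0.02. Pgm1, which links glycogen to glucose 6-phosphate, was at 9.36 and 10.7 FPKM. Gbe1, the glycogen branching enzyme, was at 3.41 and 3.03 FPKM, the mitochondrial carboxykinase Pck2 at 4.51 and 4.05 FPKM and the glucose 6-phosphate transporter Slc37a4 at 6.40 and 5.98 FPKM. Of the 6 genes of the NADH shuttles, 3 were higher and 3 lower. Among them the aminotransferase Got2 was at 19.3 and 17.6 FPKM, the aspartate-glutamate carriers Slc25a12 and Slc25a13 at 7.33 and 6.62 and at 1.43 and 1.59 FPKM, and Gpd1, the cytosolic glycerol phosphate dehydrogenase, at 9.81 and 10.5 FPKM.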
